A study of Mus musculus with 30 samples.

Results

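The expression of 8 genes used as markers of the mural cells of blood vessels was followed through mouse dorsal root ganglia after chemotherapy. Pdgfrb, Rgs5, Cspg4, Abcc9 and Notch3 are used for pericytes, and Acta2, Myh11 and Tagln for vascular smooth muscle. Whole ganglia were measured, so the values do not tell which cells transcribed each gene. The 8 genes were chosen by name, and all were found, each as a single row, among the 56686 genes of the deposited table. The samples were lumbar dorsal root ganglia (levels L3 to L5, both sides) of wild type male C57BL/6J mice, perfused with an RNA-preserving solution 2 or 8 days after treatment. On day 2 the mice had received CVAD, cyclophosphamide, dexamethasone or saline, and on day 8 CVAD, cyclophosphamide, vincristine, doxorubicin, dexamethasone or saline, and the saline group of each day was the control for that day. CVAD is a regimen of 4 drugs: the alkylating agent cyclophosphamide, the microtubule poison vincristine, the anthracycline doxorubicin (Adriamycin) and the glucocorticoid dexamethasone. Each of the 10 groups held 3 libraries, 30 in all. The labels give neither doses nor ages, and do not say whether a library came from 1 mouse or from a pool, so the p-values measure the spread between these libraries.

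Pericytes sit on capillaries inside the endothelial basement membrane, and smooth muscle cells wrap the arterioles and venules. Endothelial PDGF-B acts through the receptor PDGFRB to recruit and keep pericytes, and Notch ligands on endothelium act through NOTCH3 to mature arterial smooth muscle. Contractile genes of smooth muscle are switched on by serum response factor with its cofactor myocardin, which bind a DNA element called the CArG box. In the dorsal root ganglion a dense capillary bed runs among the neuron cell bodies, and the permeability of these vessels exposes sensory neurons to drugs that the blood-brain barrier keeps out.

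The values are TPM (transcripts per 1000000), which scale reads by transcript length and by the total of each library, so that levels can be compared between genes. The libraries summed to between 999910 and 999941 TPM, and their read depth is not given by these values. Protein-coding genes took between 60.5% and 73.8% of the TPM. Markers of sensory neurons were high in every library (10 of 10 genes measured, together 1391 to 1930 TPM). Summed skeletal muscle markers (12 genes) ranged much more widely, between 87.2 and 1294 TPM, and did so inside groups as well as between them. Of these 12 genes Pvalb lay between 64.5 and 125 TPM in every library and made up most of the lowest sum. Ckm, another of them, was listed at 0 in 1 library. A gene was tested where its TPM was at least 1 in at least 3 libraries, which left 25434 genes. All 8 genes passed, each with a TPM above 4 in every library. They lie on chromosomes 1 (Rgs5), 6 (Abcc9), 9 (Tagln and Cspg4), 16 (Myh11), 17 (Notch3), 18 (Pdgfrb) and 19 (Acta2).

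The mean levels of the 8 genes lay above those of between 43.2% (Abcc9) and 94.2% (Rgs5) of the tested genes. Rgs5, a regulator of G-protein signalling and a classical pericyte transcript, was the most abundant, with a mean of 105.6 TPM over the 30 libraries (range 92.2 to 123.4). Tagln, which encodes the actin-binding protein transgelin, followed with a mean of 54.4 TPM (43.4 to 71.3). Pdgfrb averaged 50.8 TPM (41.2 to 60.95). Acta2, the smooth muscle alpha-actin gene, averaged 43.3 TPM (30.4 to 61.8), close to Cspg4, the gene for the NG2 proteoglycan, at 39.4 TPM (28.5 to 54.5). Notch3 averaged 24.2 TPM (18.5 to 30.5). Myh11, the smooth muscle myosin heavy chain, averaged 14.4 TPM (9.73 to 24.3), and Abcc9, the SUR2 subunit of ATP-sensitive potassium channels, had the lowest mean of the 8 at 7.51 TPM (4.12 to 10.4). The ranges of Tagln, Pdgfrb, Acta2 and Cspg4 overlapped widely, whereas those of Rgs5 and Tagln did not overlap.

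The genes also differed in how tightly they were held. The coefficient of variation over the 30 libraries was 7.27% for Rgs5, 10.3% for Pdgfrb, 11.6% for Notch3 and 12.1% for Tagln. It was 15.2% for Cspg4, 16.9% for Acta2, 19.5% for Abcc9 and 21.7% for Myh11. Rgs5 was among the steadier genes of a broad range of levels. Of the 15495 tested genes with a mean between 5 and 150 TPM, 83.8% had a larger standard deviation within groups on the log2 scale than Rgs5 (0.11). Myh11 lay on the other side, with a within-group standard deviation of 0.26 that only 20.1% of these genes exceeded. The genes of this range were not matched by level to either gene, and Rgs5, with a mean of 105.6 TPM, lay in its upper part.

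**Figure D1:**
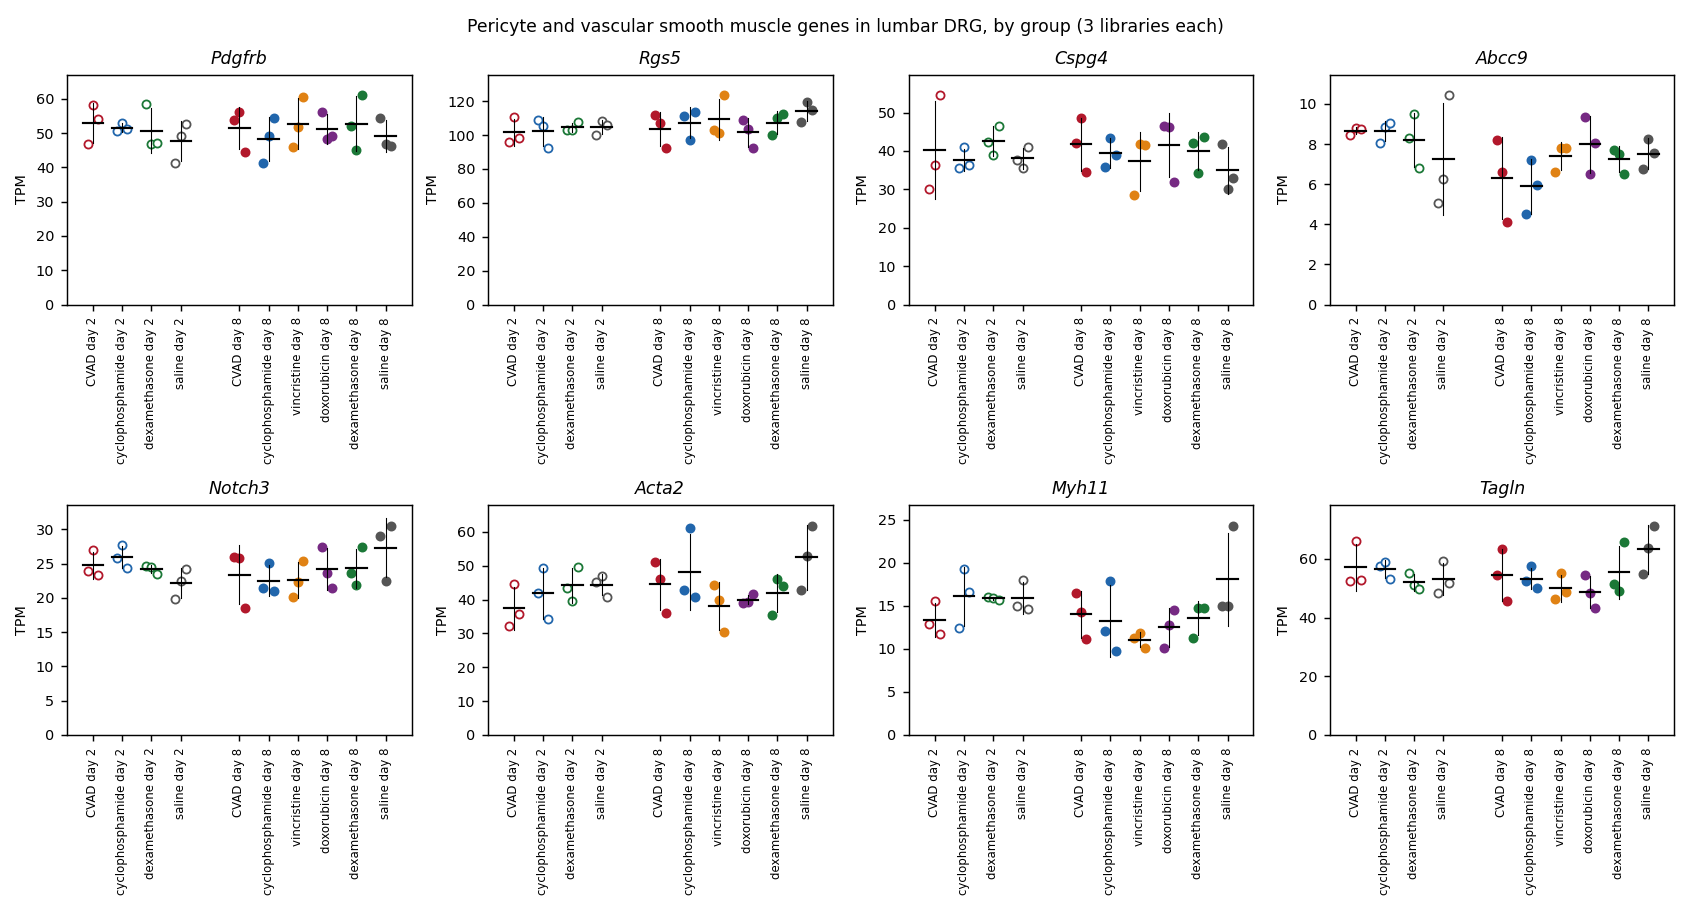
Each panel gives the TPM of 1 gene in each of the 30 libraries (points), by group, with the group mean (bar) and the standard deviation (thin line, n = 3). Open points are day 2 and filled points day 8. The saline day 8 group has the highest mean for Rgs5, Notch3, Acta2, Myh11 and Tagln, and its highest library reaches 24.3 TPM for Myh11.

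Ranked by group mean, saline on day 8 was the highest of the 10 groups for 5 of the 8 genes, Rgs5, Notch3, Acta2, Myh11 and Tagln, and the lowest for Cspg4. The other extremes were scattered. Abcc9 was highest in CVAD on day 2 (8.67 ± 0.19 TPM, SD, n = 3) and lowest in cyclophosphamide on day 8 (5.89 ± 1.37 TPM), and Pdgfrb was highest in CVAD on day 2 (53.0 ± 5.8 TPM) and lowest in saline on day 2 (47.7 ± 5.9 TPM). For none of the 8 genes were any neighbouring groups in this order, 9 pairs a gene, separated without overlap of their libraries. The lowest and the highest group were apart for Abcc9, Myh11 and Tagln only. These groups were picked as the extremes of 10, which favours separation, and the share over all tested genes was not determined. For Tagln the nearest libraries had 54.4 and 54.7 TPM.

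No change of any of the 8 genes passed the test. In limma on log2(TPM + 1), with Benjamini-Hochberg adjustment over all tested genes, 0 of 8 had an adjusted p under 0.05 in any of the 8 comparisons between a drug group and its same-day saline group. The background was also thin. The share of all tested genes called was 0.0432% for CVAD, 0.0118% for cyclophosphamide and 0.00393% for dexamethasone on day 2. On day 8 it was 0% for CVAD, 0.00786% for cyclophosphamide and 0% for vincristine, doxorubicin and dexamethasone. At an unadjusted p under 0.05 no member was reached on day 2, where 8.19% of all genes were for CVAD, 7.51% for cyclophosphamide and 5.37% for dexamethasone. On day 8 the count was 0 of 8 for CVAD (5.98% of all genes), 1 for cyclophosphamide (5.76%), 3 for vincristine (3.44%), 3 for doxorubicin (3.35%) and 0 for dexamethasone (3.26%). All 7 of these values were lower than saline and belonged to Myh11, Acta2 or Tagln. In whole ganglia, fewer mural cells and less RNA per cell cannot be told apart.

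**Figure D2:**
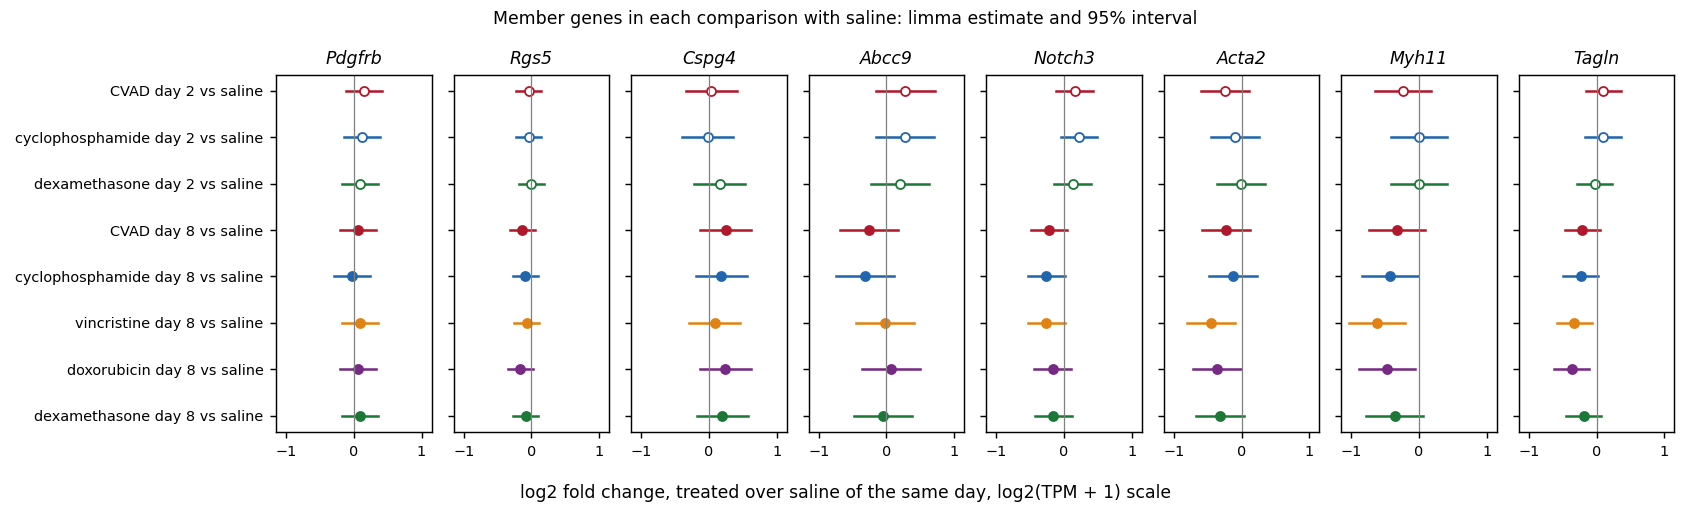
The log2 fold change of each gene, treated over saline of the same day on the log2(TPM + 1) scale (points), with its 95% interval from limma (lines), for the 8 comparisons with saline. Intervals for Acta2, Myh11 and Tagln lie below 0 in vincristine and doxorubicin on day 8, and those for Pdgfrb, Rgs5, Cspg4, Abcc9 and Notch3 include 0 in every comparison.

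The intervals, each for 1 gene in 1 comparison with no adjustment, give the sizes of change these libraries leave possible. Pdgfrb, the receptor by which pericytes are recruited, had 46.8, 58.2 and 54.0 TPM in CVAD on day 2, against 41.2, 49.3 and 52.6 TPM in saline. The groups overlapped, and the log2 fold change was 0.15 ± 0.13 (SE; 95% interval -0.12 to 0.42; adjusted p = 0.842, limma), the smallest unadjusted p of Pdgfrb in any comparison with saline. On day 8 it had 53.7, 56.2 and 44.6 TPM in CVAD, against 54.4, 46.7 and 46.3 TPM in saline, again overlapping. The difference was 0.06 ± 0.13 (-0.20 to 0.33; adjusted p = 0.999).

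Rgs5 gave the narrowest intervals of the 8. In CVAD on day 2 it had 96.0, 110.8 and 98.2 TPM, against 99.8, 108.1 and 105.8 TPM in saline, a log2 fold change of -0.04 ± 0.09 (-0.23 to 0.14; adjusted p = 0.962 in limma). By day 8 it stood at 111.7, 106.9 and 92.6 TPM in CVAD, against 107.8, 119.5 and 114.6 TPM in saline, or -0.14 ± 0.09 (-0.32 to 0.05; adjusted p = 0.926). On that day 2 of the 3 CVAD libraries lay under the whole saline range. Its smallest unadjusted p was in doxorubicin on day 8, where it had 109.0, 103.6 and 92.2 TPM and a log2 fold change of -0.17 ± 0.09 (-0.35 to 0.02; adjusted p = 1).

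Cspg4 varied more between libraries of 1 group. CVAD on day 2 held both a low and the highest value of the gene, 29.98, 36.3 and 54.5 TPM, against 37.7, 35.5 and 41.0 TPM in saline. The log2 fold change was 0.04 ± 0.18 (-0.34 to 0.41; adjusted p = 0.998 in limma). On day 8 it had 42.1, 48.5 and 34.5 TPM in CVAD, against 41.7, 30.2 and 32.9 TPM in saline. That difference, 0.25 ± 0.18 (-0.13 to 0.63; adjusted p = 0.940), was upward, opposite to the other pericyte genes except Pdgfrb, and the groups overlapped.

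Abcc9 was tight in CVAD on day 2, with 8.45, 8.81 and 8.74 TPM, and spread out in saline of that day, with 5.07, 6.27 and 10.4 TPM. The highest saline library lay above all CVAD libraries, and the log2 fold change was 0.28 ± 0.21 (-0.15 to 0.71; adjusted p = 0.799 in limma). Its values on day 8 were 8.21, 6.58 and 4.12 TPM in CVAD, against 6.74, 8.25 and 7.57 TPM in saline, or -0.26 ± 0.21 (-0.69 to 0.17; adjusted p = 0.953). Cyclophosphamide on day 8 gave the smallest unadjusted p of Abcc9, with 4.49, 7.22 and 5.96 TPM and a log2 fold change of -0.32 ± 0.21 (adjusted p = 0.973).

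Notch3, the Notch receptor of mural cells, had 24.0006, 27.04 and 23.3 TPM in CVAD on day 2, against 19.8, 22.4 and 24.3 TPM in saline, a log2 fold change of 0.16 ± 0.13 (-0.12 to 0.43; adjusted p = 0.839 in limma). On day 8 it had 25.9, 25.8 and 18.5 TPM in CVAD, against 29.04, 22.5 and 30.5 TPM in saline, or -0.22 ± 0.13 (-0.49 to 0.05; adjusted p = 0.901). In both comparisons the groups overlapped. Cyclophosphamide gave the gene opposite values on the days. On day 2 it had 25.8, 27.7 and 24.4 TPM, all above the 3 saline libraries of that day, and a log2 fold change of 0.22 ± 0.13. At day 8 it measured 21.5, 25.1 and 20.98 TPM and a log2 fold change of -0.26 ± 0.13 (-0.53 to 0.01; adjusted p = 0.884), its smallest unadjusted p against saline.

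The 3 contractile genes had the lowest log2 fold changes of the 8 in vincristine and doxorubicin on day 8. Acta2 is shown with its start because it carries 2 CArG-like elements, where the other members searched, Rgs5, Cspg4, Abcc9 and Notch3, carry none. The 250 bases upstream of the annotated start of Acta2 (GRCm38.p6, minus strand, chr19:34255374-34255623) and of Rgs5 (plus strand, chr1:169655251-169655500) follow, 5′ to 3′, with CArG-like elements in capitals.
Acta2: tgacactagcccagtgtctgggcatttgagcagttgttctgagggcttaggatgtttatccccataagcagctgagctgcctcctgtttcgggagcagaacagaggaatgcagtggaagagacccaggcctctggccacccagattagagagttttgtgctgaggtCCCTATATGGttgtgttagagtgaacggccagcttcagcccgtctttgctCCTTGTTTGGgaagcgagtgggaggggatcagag
Rgs5: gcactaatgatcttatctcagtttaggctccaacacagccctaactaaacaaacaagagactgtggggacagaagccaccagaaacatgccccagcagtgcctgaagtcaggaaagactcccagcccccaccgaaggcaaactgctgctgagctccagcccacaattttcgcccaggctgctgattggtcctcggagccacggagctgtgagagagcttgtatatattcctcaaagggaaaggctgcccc
The search was for the CArG box by name, an element of 10 bases with an A/T core, on both strands, allowing up to 1 core base other than A or T. The elements of Acta2, CCCTATATGG at 84 to 75 bases and CCTTGTTTGG at 34 to 25 bases before the start, do not overlap, and each has 1 such core base. Of the 32851 mouse promoters of this length, 8.59% hold at least 1 element by this rule, 0.670% hold 2 or more and 1.47% hold an exact one. Promoters were searched for 5 of the 8 genes, and no element was found in the windows of Rgs5, Cspg4, Abcc9 and Notch3. Those of Pdgfrb, Myh11 and Tagln were not searched, so Acta2 was the only contractile gene among the 5. A match is a description of letters and not a site.

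Acta2 had 32.1, 44.5 and 35.7 TPM in CVAD on day 2, against 45.3, 47.0 and 40.9 TPM in saline. Of the 3 CVAD libraries 2 lay below all saline libraries, and the log2 fold change was -0.25 ± 0.17 (-0.60 to 0.10; adjusted p = 0.771 in limma). On day 8 it had 51.1, 46.1 and 36.1 TPM in CVAD, against 42.7, 52.9 and 61.8 TPM in saline, or -0.23 ± 0.17 (-0.59 to 0.12; adjusted p = 0.940). Vincristine on day 8 gave its smallest unadjusted p, with 44.2, 39.7 and 30.4 TPM, overlapping saline by 1 library, and a log2 fold change of -0.45 ± 0.17 (-0.81 to -0.10; adjusted p = 1). In doxorubicin it had 39.1, 39.2 and 41.6 TPM, all below saline, or -0.37 ± 0.17 (-0.72 to -0.02; adjusted p = 1). Neither passed the adjusted threshold.

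Myh11, the most specific of the contractile genes for smooth muscle, had 12.8, 15.5 and 11.7 TPM in CVAD on day 2, against 14.99, 18.03 and 14.6 TPM in saline. The groups overlapped and the log2 fold change was -0.24 ± 0.20 (-0.65 to 0.18; adjusted p = 0.839 in limma). On day 8 the gene had 16.5, 14.3 and 11.1 TPM in CVAD, against 15.0002, 14.9 and 24.3 TPM in saline, or -0.33 ± 0.20 (-0.74 to 0.09; adjusted p = 0.908). In vincristine on day 8 it had 11.3, 11.8 and 10.1 TPM, with no overlap with saline. That log2 fold change, -0.63 ± 0.20 (-1.04 to -0.21; adjusted p = 1), was the lowest of any member against saline. In doxorubicin the gene had 10.1, 12.8 and 14.5 TPM, again all below saline, or -0.48 ± 0.20 (-0.89 to -0.06; adjusted p = 1). Cyclophosphamide on day 8, with 12.1, 17.8 and 9.73 TPM, gave -0.43 ± 0.20 (adjusted p = 0.861) and overlapped saline. In dexamethasone on day 8 it had 11.2, 14.7 and 14.7 TPM, below all saline libraries, the nearest of which had 14.9 TPM.

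Tagln had 52.4, 66.3 and 52.7 TPM in CVAD on day 2, against 48.5, 59.2 and 51.7 TPM in saline, a log2 fold change of 0.10 ± 0.13 (-0.16 to 0.36; adjusted p = 0.910 in limma). On day 8 it had 54.7, 63.3 and 45.7 TPM in CVAD, against 54.7, 63.7 and 71.3 TPM in saline, or -0.21 ± 0.13 (-0.47 to 0.05; adjusted p = 0.899). Doxorubicin on day 8 gave its smallest unadjusted p: 54.4, 48.3 and 43.4 TPM, all below saline though the nearest values were 54.4 and 54.7 TPM, and a log2 fold change of -0.37 ± 0.13 (-0.63 to -0.11; adjusted p = 1). In vincristine it had 46.2, 55.2 and 48.6 TPM, overlapping saline by 1 library, and a log2 fold change of -0.33 ± 0.13 (-0.59 to -0.07; adjusted p = 1).

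Counting over all 8 genes, the libraries of drug and saline did not overlap for 0 genes in CVAD on day 2 (13.5% of all tested genes), 1 in cyclophosphamide (11.5%) and 0 in dexamethasone (8.91%). On day 8 the counts were 0 in CVAD (9.99%), 0 in cyclophosphamide (9.48%), 1 in vincristine (6.18%), 3 in doxorubicin (5.99%) and 1 in dexamethasone (6.51%). The day 8 comparisons share their saline libraries and so are not independent of each other.

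The 7 values on day 8 leaned on a single saline library, though not on it alone. Saline day 8 replicate 3 had the highest value of all 30 libraries for Acta2 (61.8 TPM), Myh11 (24.3 TPM), Tagln (71.3 TPM) and Notch3 (30.5 TPM), and the highest sum of the 8 genes (389.4 TPM). Without it, none of the 7 values on day 8 stayed under an unadjusted p of 0.05, though none changed sign. In vincristine the log2 fold change of Myh11 became -0.40, that of Acta2 -0.33 and that of Tagln -0.24. In doxorubicin Tagln became -0.28, Myh11 -0.26 and Acta2 -0.24. For Myh11 in cyclophosphamide it became -0.21. Other libraries also counted. In 6 limma fits that each left out 1 library, Acta2 in doxorubicin kept an unadjusted p under 0.05 in 1 and Myh11 in cyclophosphamide in 3. Acta2 and Tagln in vincristine and Myh11 in doxorubicin kept it in 4, and Myh11 in vincristine and Tagln in doxorubicin in 5.

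**Figure D3:**
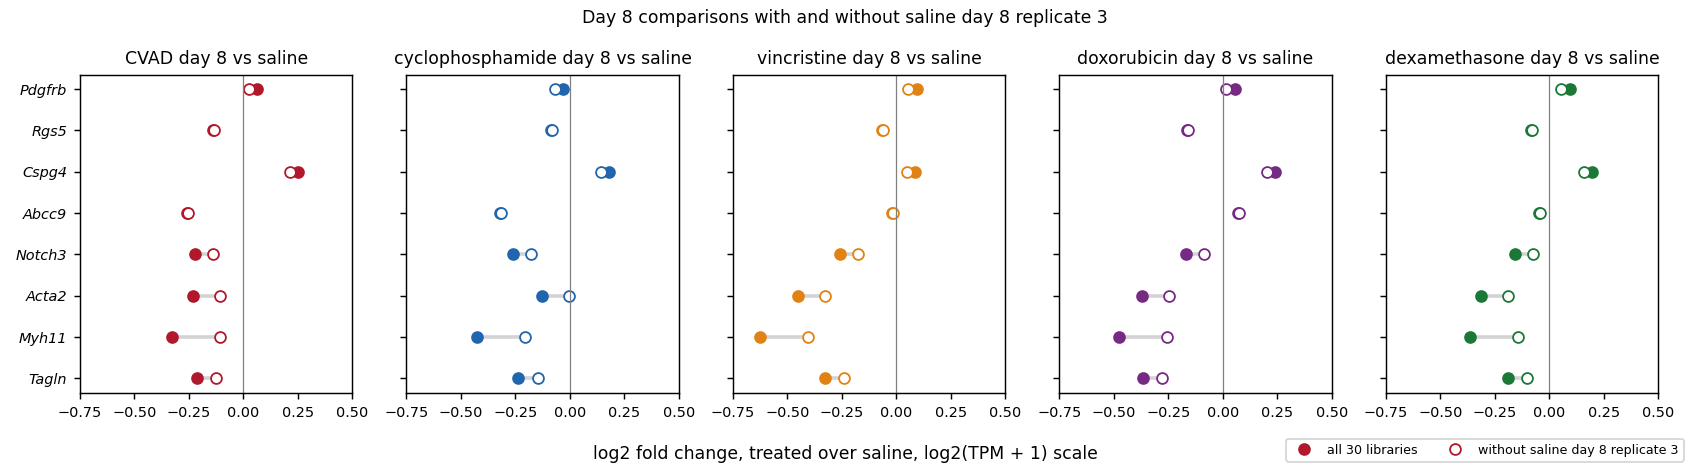
The log2 fold change over saline of each gene in the 5 day 8 comparisons, with all 30 libraries (filled points) and without saline day 8 replicate 3 (open points). The grey bars show that Myh11, Acta2, Tagln and Notch3 move most, for example Myh11 in vincristine at -0.63 with all libraries and -0.40 without that one, while Rgs5 and Abcc9 hardly move.

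The same saline library also had the highest sum of neutrophil and marrow markers, 428 TPM (10 genes). Those markers were lower in drug than in saline on day 8 for all 10 genes in vincristine and in doxorubicin, with sums between 118 and 281 TPM in vincristine, 143 and 277 TPM in doxorubicin and 244 and 428 TPM in saline. Adipocyte markers (6 of 7 genes tested) were lower for 5 of 6 genes in vincristine and 6 of 6 in doxorubicin. Of all tested genes 44.3% were lower in vincristine and 55.1% in doxorubicin. The adipocyte sums ran between 80.7 and 142 TPM in vincristine, 72.2 and 171 TPM in doxorubicin and 102 and 175 TPM in saline. Of these markers Fcnb was listed at 0 in 7 of the 30 libraries, Ctsg in 2 and the untested adipocyte gene Lep in 8, and the others were above 0 in every library. Against saline, none of these genes passed the adjusted test. The neutrophil and marrow markers lay further below saline in CVAD on day 8, with a median log2 fold change of -1.87 and sums between 82.1 and 114 TPM. There 10 of the 10 genes did not overlap saline, where 9.99% of all tested genes did not. In that comparison the log2 fold change was -0.33 for Myh11, -0.23 for Acta2 and -0.21 for Tagln, none with an unadjusted p under 0.05. The part of neutrophils, marrow cells and adipocytes in the values of the contractile genes was not tested. With the skeletal muscle score as a covariate, the log2 fold change of Myh11 was -0.70 in vincristine and -0.51 in doxorubicin. It was -0.63 and -0.48 without the covariate. The part of skeletal muscle in the values of Myh11 was not tested.

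As a group, the 8 genes stood near the rest of the table on day 2 and below it on day 8. Their median log2 fold change in CVAD on day 2 was 0.07, against 0.07 for all tested genes. Of the 8, 5 were above 0 (65.9% of all tested genes) and 3 below. In cyclophosphamide it was 0.05 (all genes 0.06) and in dexamethasone 0.05 (all genes 0.06). On day 8 the median was -0.22 in CVAD (all genes 0.02), -0.18 in cyclophosphamide (all genes -0.04), -0.16 in vincristine (all genes 0.02), -0.17 in doxorubicin (all genes -0.02) and -0.12 in dexamethasone (all genes -0.02). The number of genes below 0 was 6, 7, 6, 5 and 6 of 8 in that order, where 44.7%, 61.0%, 44.3%, 55.1% and 56.0% of all tested genes were. Without saline day 8 replicate 3 the medians were -0.12, -0.11, -0.12, -0.12 and -0.08.

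Setting CVAD directly against its single drugs showed no difference that passed the test either. The adjusted test called 0 of 8 genes against each of the 6 drug groups, with 0.00393% of all genes called for CVAD against cyclophosphamide on day 2 and 0% in the other 5. At an unadjusted p under 0.05 no member was reached, where 3.83% of all genes were against cyclophosphamide and 3.66% against dexamethasone on day 2. On day 8 the shares were 5.34% against cyclophosphamide, 3.48% against vincristine, 4.80% against doxorubicin and 4.94% against dexamethasone. Myh11 was 0.30 higher in CVAD than in vincristine on day 8 on the log2 scale and Acta2 0.22 higher. Abcc9 was 0.33 lower in CVAD than in doxorubicin, with 8.21, 6.58 and 4.12 TPM in CVAD and 9.36, 6.52 and 8.06 TPM in doxorubicin.

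The difference between the days was tested as an interaction. For the response to CVAD on day 8 minus that on day 2, 0 of 8 genes were called (0.0826% of all genes), and none had an unadjusted p under 0.05 (8.63% of all genes). Notch3 came nearest, at -0.38 ± 0.19 (adjusted p = 0.590 in limma), and Abcc9 had the lowest value, -0.54 ± 0.30 (adjusted p = 0.647). For cyclophosphamide 0 were called (0% of all genes), and Notch3 alone had an unadjusted p under 0.05 (9.55% of all genes), at -0.49 ± 0.19 (adjusted p = 0.406). It was no longer under that limit without saline day 8 replicate 3, at -0.40, or with a term for the libraries named S1 to S8. That term was estimated from dexamethasone on day 2 alone, because those libraries hold all of cyclophosphamide on day 2 and no saline. For dexamethasone 0 were called (0%), and none had an unadjusted p under 0.05 (4.92%).

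Saline was also set against itself between the days. On day 8 against day 2, 7 of the 8 genes were higher (64.5% of all tested genes), with a median log2 fold change of 0.13 (0.07 over all tested genes), but 0 were called (0.00393% of all genes) and 1 had an unadjusted p under 0.05 (6.93%). That gene was Notch3, with 29.04, 22.5 and 30.5 TPM in saline on day 8 and 19.8, 22.4 and 24.3 TPM in saline on day 2, a log2 fold change of 0.28 ± 0.13 (adjusted p = 0.698 in limma). The libraries overlapped, and without saline day 8 replicate 3 the value was 0.20. Day 8 and day 2 were compared across separate samples, so time and any other difference between those samples cannot be told apart.

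Beyond the 8 genes, the pathways around them gave no gene past the adjusted threshold in any comparison with saline. Of 13 other pericyte genes tested (14 listed), 9 were above 0 in CVAD on day 2 and 8 on day 8, with medians of 0.13 and 0.10. The share of all tested genes above 0 was 65.9% on day 2 and 54.2% on day 8, with medians of 0.07 and 0.02. Gucy1a1, a subunit of the nitric oxide receptor guanylate cyclase, averaged 13.03 ± 1.40 TPM in CVAD on day 2 and 10.1 ± 1.08 TPM in saline (SD, n = 3 each), with no overlap and a log2 fold change of 0.33 ± 0.13 (adjusted p = 0.468 in limma). Kcnj8, the pore subunit that pairs with the Abcc9 product in the vascular potassium channel, averaged 3.98 ± 1.19 TPM in CVAD on day 2 and 2.34 ± 0.45 TPM in saline, or 0.56 ± 0.24 (adjusted p = 0.547). On day 8 Kcnj8 averaged 2.63 ± 0.79 TPM in CVAD and 3.997 ± 1.326 TPM in saline, or -0.45 ± 0.24 (adjusted p = 0.883), the same order of signs as Abcc9. Anpep, an aminopeptidase of pericytes, averaged 27.8 ± 3.2 TPM in CVAD on day 8 and 21.9 ± 1.7 TPM in saline, or 0.32 ± 0.18 (adjusted p = 0.891).

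Of 15 other contractile genes, 8 were above 0 in CVAD on day 2 (65.9% of all tested genes) and 6 on day 8 (54.2%). The medians were 0.03 and -0.02. Actg2, the gamma-actin of smooth muscle, averaged 5.97 ± 2.62 TPM in CVAD on day 2 and 12.6 ± 6.0 TPM in saline, without overlap, a log2 fold change of -0.95 ± 0.40 (adjusted p = 0.521 in limma). Tpm1, a tropomyosin, gave -0.20 ± 0.14 on that day (adjusted p = 0.774). On day 8 Ppp1r14a, an inhibitor of myosin phosphatase, averaged 8.23 ± 1.65 TPM in CVAD and 11.2 ± 1.8 TPM in saline, or -0.41 ± 0.21 (adjusted p = 0.868). Ppp1r12b, a subunit of that phosphatase, gave 0.13 ± 0.07 (adjusted p = 0.891). On day 8, 14 of these 15 contractile genes were below 0 in cyclophosphamide (61.0% of all tested genes) and 8 in vincristine (44.3%). In doxorubicin 12 were below 0 (55.1%) and in dexamethasone 8 (56.0%).

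The regulators of the contractile genes were close to level. Of Srf, Myocd, Mrtfa and Mrtfb, 3 were above 0 in CVAD on day 2 and 2 on day 8. The shares of all tested genes were 65.9% and 54.2%. Mrtfb, a myocardin-related cofactor of serum response factor, gave 0.16 ± 0.11 on day 2 (adjusted p = 0.762 in limma) and 0.11 ± 0.11 on day 8 (adjusted p = 0.967). Srf gave 0.10 ± 0.12 on day 2. Myocd, low throughout, averaged 1.14 ± 0.43 TPM in CVAD on day 8 and 1.44 ± 0.24 TPM in saline. Of 14 genes of PDGF, Notch and angiopoietin signalling, 9 were above 0 in CVAD on either day (65.9% and 54.2% of all tested genes). Hes1, a Notch target, averaged 32.9 ± 2.5 TPM in CVAD on day 2 and 27.5 ± 6.9 TPM in saline, or 0.28 ± 0.16 (adjusted p = 0.696), and on day 8 31.0 ± 6.1 TPM in CVAD and 24.5 ± 0.47 TPM in saline, or 0.31 ± 0.16 (adjusted p = 0.855). Tek, the endothelial angiopoietin receptor, gave 0.24 ± 0.15 on day 2 (adjusted p = 0.714). Pdgfd, a ligand of PDGFRB, averaged 6.19 ± 1.17 TPM in CVAD on day 8 and 8.42 ± 0.64 TPM in saline, without overlap, or -0.40 ± 0.20 (adjusted p = 0.855).

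Across the 30 libraries the 8 genes did not vary as 1 block. Of their 28 pairs, 23 had a positive correlation of log2(TPM + 1), with a median Pearson r of 0.28, and 10 had an adjusted p under 0.05 by 100000 permutations. Of these, 4 also passed when each group's mean was removed and libraries were permuted within groups. Acta2 and Myh11 were the closest (r = 0.70, permutation p = 3e-05, adjusted p = 0.00056; Spearman's rho = 0.65, permutation p = 0.00016). Their r was 0.73 within groups and 0.58 without the 2 libraries farthest from the median of Acta2. Tagln and Notch3 had r = 0.68 (permutation p = 4e-05; rho = 0.66; within groups 0.67; 0.59 without the 2 farthest). Pdgfrb and Notch3 had r = 0.57 (permutation p = 0.00088; rho = 0.60; within groups 0.67; 0.49 without the 2 farthest), and Pdgfrb and Cspg4 r = 0.52 (permutation p = 0.0035; rho = 0.60; within groups 0.57; 0.56 without the 2 farthest). Pdgfrb had an r of -0.20 with Acta2 and of -0.12 with Myh11, both short of the threshold.

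**Figure D4:**
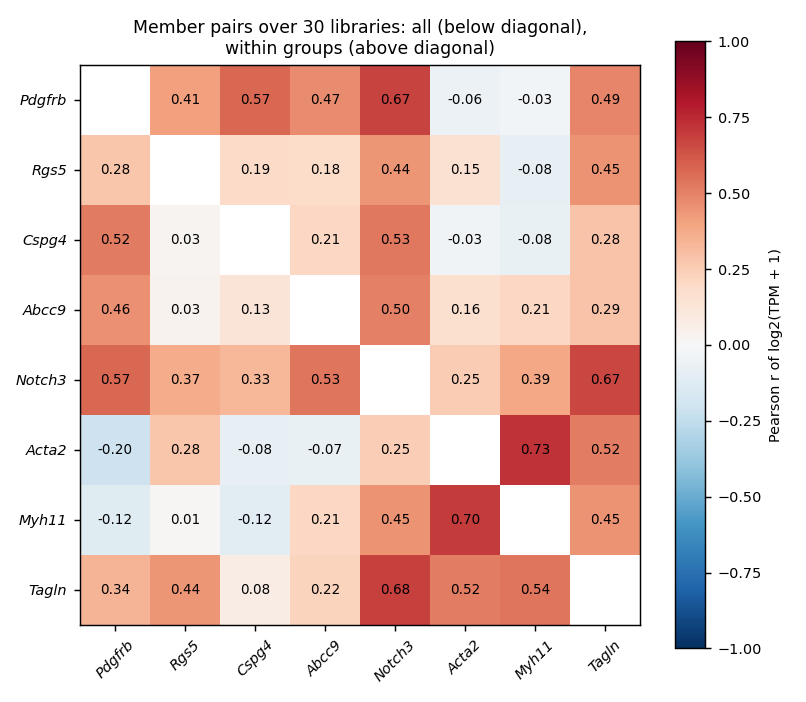
Pearson r of log2(TPM + 1) between the 8 genes over 30 libraries, pooled below the diagonal and within groups (group means removed) above it. Acta2 and Myh11 reach 0.70 pooled and 0.73 within groups, while Pdgfrb against Acta2 and Myh11 lies at -0.20 and -0.12.

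These relations depend on how libraries are scaled. Pdgfrb, Rgs5 and Notch3 each followed the share of TPM that went to protein-coding genes (r = 0.71, 0.71 and 0.64), and Acta2 (r = 0.05) and Myh11 (r = -0.07) did not. After median-ratio scaling Acta2 and Myh11 had r = 0.72, past the adjusted threshold both pooled and within groups. Tagln and Notch3 had r = 0.56 pooled, but within groups r was 0.44 and did not pass (adjusted p = 0.613 by permutation). Pdgfrb and Notch3 had r = 0.23 and Pdgfrb and Cspg4 r = 0.37, and neither passed the adjusted threshold (adjusted p = 0.452 and 0.149).

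Several of the pericyte genes followed the summed markers of other cells. In 80 relations of the 8 genes with 10 marker sums, Pdgfrb and the fibroblast sum (10 genes) had the highest r, 0.91 (permutation p = 1e-05, the smallest that 100000 permutations can give; rho = 0.90; within groups 0.92; 0.90 without the 2 farthest libraries). It was 0.85 after median-ratio scaling. Pdgfrb also followed the myelinating Schwann cell sum (9 genes; r = 0.80, permutation p = 1e-05; rho = 0.83; within groups 0.85; 0.72 after median-ratio scaling). Pdgfrb is known to be transcribed in fibroblasts too. Its r with the endothelial sum was 0.72, but 0.41 after median-ratio scaling (adjusted p = 0.125). With the satellite glia sum (7 genes) Pdgfrb had r = 0.69 (rho = 0.76, within groups 0.77), but 0.36 after that scaling (adjusted p = 0.195 by permutation). Cspg4 and the fibroblast sum had r = 0.48 (rho = 0.51, within groups 0.55), but 0.33 after that scaling (adjusted p = 0.261 by permutation).

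Rgs5 followed the sensory neuron sum (10 genes), with r = 0.83 (permutation p = 1e-05; rho = 0.81; within groups 0.88; 0.84 without the 2 farthest libraries), and 0.81 after median-ratio scaling. That r was 0.67 with TPM rescaled to protein-coding genes alone. Within vincristine on day 8 alone, Rgs5 ran between 101.0 and 123.4 TPM and the neuron sum between 1498 and 1843 TPM. Rgs5 also followed the satellite glia sum (7 genes), with r = 0.64 (rho = 0.64, within groups 0.74), and 0.53 after median-ratio scaling. After that scaling the relation did not pass within groups (adjusted p = 0.193 by permutation). With TPM rescaled to protein-coding genes alone r was 0.19 and did not pass pooled (adjusted p = 0.474 by permutation). Rgs5 had no such relation with the endothelial sum that passed the adjusted threshold, and its r with Acta2 was 0.28 and with Myh11 0.01. Which cells of the ganglion transcribed Rgs5 was not tested.

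Notch3 followed the endothelial sum (14 genes; r = 0.77, permutation p = 1e-05; rho = 0.82; within groups 0.87; 0.76 without the 2 farthest libraries), with r = 0.54 after median-ratio scaling (adjusted p = 0.0247). It also passed pooled, but not within groups, with the fibroblast (r = 0.51), neutrophil and marrow (r = 0.49) and bone and cartilage (r = 0.52) sums. Abcc9 followed the bone and cartilage sum (10 genes; r = 0.74, permutation p = 1e-05; rho = 0.63; 0.62 without the 2 farthest libraries; 0.71 after median-ratio scaling), though within groups the adjusted p was 0.0611. Abcc9 also followed the skeletal muscle sum (12 genes; r = 0.51, permutation p = 0.0038; rho = 0.51; within groups 0.62; 0.55 after median-ratio scaling); the SUR2 protein is also a subunit of the potassium channel of skeletal muscle. With the neutrophil and marrow sum (10 genes) Abcc9 had r = 0.46 (rho = 0.36, within groups 0.59). After median-ratio scaling that r was 0.42 and did not pass pooled (adjusted p = 0.125 by permutation). Pooled but not within groups, Abcc9 passed with the adipocyte (r = 0.50), endothelial (r = 0.45) and fibroblast (r = 0.46) sums. So did Tagln with the endothelial sum (r = 0.45), Myh11 with the adipocyte sum (r = 0.46) and Cspg4 with the myelinating Schwann cell sum (r = 0.51). Acta2 and Tagln passed in no relation with any sum both pooled and within groups, and neither did Myh11.

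**Figure D5:**
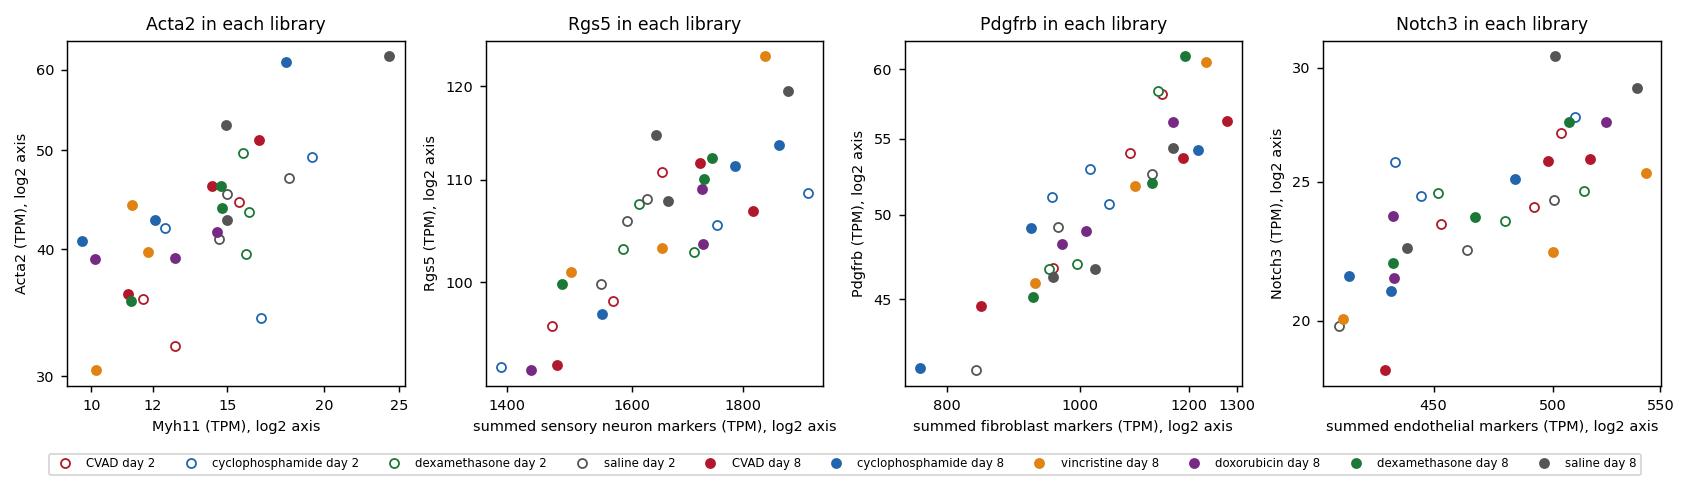
Each point is 1 of the 30 libraries, coloured by group (open, day 2; filled, day 8), on log2 axes in TPM: Acta2 against Myh11, Rgs5 against summed sensory neuron markers, Pdgfrb against summed fibroblast markers and Notch3 against summed endothelial markers. The points rise together in each panel, with r of 0.70, 0.83, 0.91 and 0.77, and groups are mixed along the lines.

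The genes most like each member over the 30 libraries were taken from 15301 protein-coding genes. For Acta2 they were Actg2 (r = 0.77), Cnn1, the contractile protein calponin (r = 0.74), and Myh11 (r = 0.70), where the 99th percentile over all genes was 0.40. For Myh11 they included Acta2 (r = 0.70) and Scube3 (r = 0.62). For Tagln they were Iffo1 (r = 0.77), Nfu1 (r = 0.69) and Notch3 (r = 0.68), and for Notch3 they were Camk2b (r = 0.79), Myl9, a smooth muscle myosin light chain (r = 0.79), and Gtf3c1 (r = 0.79). For Pdgfrb they were Itih5 (r = 0.94), Hspg2, the basement membrane proteoglycan perlecan (r = 0.92), and Cadm4 (r = 0.91), with a 99th percentile of 0.81. For Rgs5 they were Napb, which acts in synaptic vesicle fusion (r = 0.92), Acly (r = 0.90) and Atp6v0d1 (r = 0.90), with a 99th percentile of 0.84. For Cspg4 they were Farp2 (r = 0.78), Ypel2 (r = 0.77) and Rhbdf1 (r = 0.77), and for Abcc9 Tuba8 (r = 0.80), Tril (r = 0.76) and Niban1 (r = 0.76). After median-ratio scaling r for these pairs ran from 0.49 for Notch3 and Camk2b to 0.90 for Rgs5 and Napb.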

How the data were processed

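The deposited table holds TPM per gene, made by the authors from stranded total RNA libraries after rRNA depletion (60 to 80 ng RNA), per the labels' protocols. Per the submitters' processing notes the tools included FastQC 0.12.1, STAR 2.7.10b and StringTie 2.2.1, with the builds mm10 and GRCm39 named without roles. Gene starts in the deposited table differ from GRCm38 for all 8 genes while spans match, so its coordinates are not printed; promoters are from RefSeq (GRCm38.p6). TPM keeps no depth, so no counting interval is given.

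From the deposited TPM, log2(TPM + 1) was fitted in limma 3.58.1 (R 4.3.3) with group means over all 30 libraries, an intensity trend and Benjamini-Hochberg adjustment over 25434 genes, for 18 comparisons. The procedure was tested on simulated data. Correlations used numpy 2.4.6. Alternatives changed the pseudocount, filter, scaling, gene set, weights, covariates and libraries. The 8 genes, the lists and the alternatives were chosen with earlier results of these data known, and the marker sums were rescaled after seeing the data. Named beyond the 8 were, of each pathway list, the 2 genes with the smallest p in each CVAD comparison with saline, and the 3 genes most correlated with each member, of which 1 for Myh11 is not reported here. Gene lists were written by hand from general knowledge. Replicate numbers follow accession order and pair nothing.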

Additional observations from a re-analysis of the deposited data

How the results depend on the processing

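The count of 0 of 8 genes called held in all 120 alternative results, counted over the 8 comparisons with saline together. The smallest adjusted p was 0.345 in limma. The alternatives were a pseudocount of 0.1, no filter, a filter of 15 libraries, median-ratio scaling, protein-coding genes alone and separate models per day. Others were library weights, a skeletal muscle covariate and a term for the libraries named S1 to S8 against S9 to S30. Each library of the groups compared was also left out in turn. No paired analysis was possible because the labels carry no replicate numbers and those used follow accession order. Of 424 other values of the log2 fold changes, 415 kept their direction and 9 changed sign, all in CVAD. On day 2 Cspg4 became -0.041 with median-ratio scaling and -0.014 with protein-coding genes alone, and ran between -0.199 (without CVAD replicate 3) and 0.221 as each library was left out. Tagln ran between -0.0115 (without CVAD replicate 2) and 0.177 likewise. With the term for libraries S1 to S8 Abcc9 became -0.0599, Acta2 0.00586 and Rgs5 0.0192. Those libraries hold all of CVAD and cyclophosphamide on day 2, dexamethasone day 2 replicates 1 and 2, and no saline. The term was therefore estimated from dexamethasone on day 2 alone. For CVAD on day 2 it cannot separate the library numbers from the drug. On day 8 Pdgfrb ran between -0.00106 (without CVAD replicate 2) and 0.162 as each library was left out. The cause was not tested. Of 40 alternative correlations 26 stayed past the adjusted threshold and 14 did not, 5 of them pairs of members under median-ratio scaling. Without vincristine replicate 3 the log2 fold change of Acta2 in vincristine was -0.30. The weakest change that 3 libraries a group could have called was not determined, and TPM gives no read depth.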
